A study of Mus musculus with 24 samples.

Results

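Scavenger and efferocytosis receptors are the surface proteins with which a cell binds modified lipoproteins, microbes, debris and dying cells, and 10 genes that encode them were followed here in cultured mouse lung fibroblasts. The genes were Msr1, Marco, Cd36, Mrc1, Cd163, Stab1, Mertk, Axl, Olr1 and Scarb1. They were chosen by name rather than by a measured value, although earlier results of these data were known, and are 10 of the 55291 gene names in the count tables. All 10 passed the filter on low counts that left 16258 genes for testing. The cells came from the lungs of C57BL/6 mice aged 4 to 8 weeks, either wild type (WT) or labelled TLR4-/-, a genotype meant to lack the lipopolysaccharide receptor Tlr4. For each genotype the fibroblasts were isolated from 1 pool of 3 to 4 lungs, grown to passage 3 to 6 and moved to a low-serum medium overnight, so that WT and TLR4-/- are each represented by a single pooled culture. Each genotype was then given 1 of 4 treatments: phosphate-buffered saline (PBS) as the control; rmCIRP at 1 μg/ml, the recombinant mouse form of a cold-inducible RNA-binding protein that acts as a danger signal outside cells; rmTGF-β1 at 2 ng/ml, the recombinant mouse form of a growth factor that drives fibrosis; or these proteins together. Lysates were taken at 24 h and sequenced as 3 libraries for each of the 8 conditions, 24 libraries in all. The study's figure legends give 3 samples for each group, each with 3 repeats, and do not say what these replicate.

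Scavenger receptors recognise polyanionic ligands such as oxidised lipoproteins and bacterial wall components, and most are best known from macrophages, liver sinusoidal endothelium or other phagocytes. Efferocytosis, the clearance of apoptotic cells, uses receptors such as Mertk and Axl, which bind phosphatidylserine through bridging proteins such as Gas6. It also draws on several scavenger receptors. In the lung several of these receptors are characteristic of alveolar and interstitial macrophages, whereas Axl and Scarb1 are also made by many mesenchymal and epithelial cells.

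The libraries held 29853346 to 39664606 reads on genes. Replicate libraries differed by 2.52 to 7.03 chi-square units per degree of freedom, except that, among libraries labelled TLR4-/-, replicate 3 with rmTGF-β1 and replicate 3 with both agents stood further from their partners, by up to 45.7 units. Tlr4 itself was not lower in the libraries labelled TLR4-/-, with 718, 802 and 758 normalized counts in the WT libraries with PBS and 927, 892 and 891 in those labelled TLR4-/- with PBS, a log2 difference of 0.25 (adjusted p = 0.00123, SE 0.057). The labels do not name the allele, so the genotype is given below as labelled. All 17 macrophage markers examined were detected, and their summed level with PBS was 101918 to 110897 normalized counts in WT and 394536 to 449118 in libraries labelled TLR4-/-, beside 807075 to 866295 and 766366 to 859171 for 10 fibroblast markers. Markers of alveolar macrophages were low (summed level 366 to 1201 in any library, with Ear1 at no more than 10 reads). The 5 lymphocyte markers and, of 5 epithelial markers, the 3 surfactant genes never exceeded 10 reads. All 5 epithelial markers summed to 7.4 to 105 normalized counts. The 6 neutrophil markers summed to 101 to 502, with S100a9 at 0 in every library. In WT the neutrophil sum was 150 to 181 with PBS and 399 to 432 with rmCIRP. The epithelial sum was 28.1 to 29.8 with PBS and 7.4 to 14.4 with rmCIRP. The X-inactivation transcript Xist reached no more than 3.0 normalized counts in any WT library and 4328 to 6096 in those labelled TLR4-/-, while Y-linked genes were present in both, so the pools also differed in sex. With bulk libraries, fewer cells of a type and less RNA per cell cannot be told apart.

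In WT cells with PBS the 10 receptors spanned a wide range of levels. Divided by exon length, Axl stood highest at 8486 normalized counts per kilobase, followed by Olr1 at 1038, Cd36 at 648, Marco at 496 and Msr1 at 325. Stab1, Mrc1 and Scarb1 lay between 164 and 198, Mertk was at 71.3, and Cd163, with 17 or fewer normalized counts in every WT library, was at 2.12. Over the 8 conditions the highest mean of a gene exceeded its lowest mean by 12.4 times for Cd163, 11.5 times for Marco and 10.0 times for Stab1, but only by 1.24 times for Axl and 1.21 times for Scarb1. The libraries labelled TLR4-/- lay above all WT libraries for 6 receptors (Msr1, Cd36, Mrc1, Cd163, Stab1 and Mertk) and below all of them for Marco and Axl, and the genotypes overlapped for Olr1 and Scarb1. Of all genes tested, 14.4% separated the genotypes in this way (9.89% higher and 4.48% lower in those labelled TLR4-/-). The plot of counts in each library shows the treatment differences within each genotype beside the differences between genotypes.

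**Figure D1:**
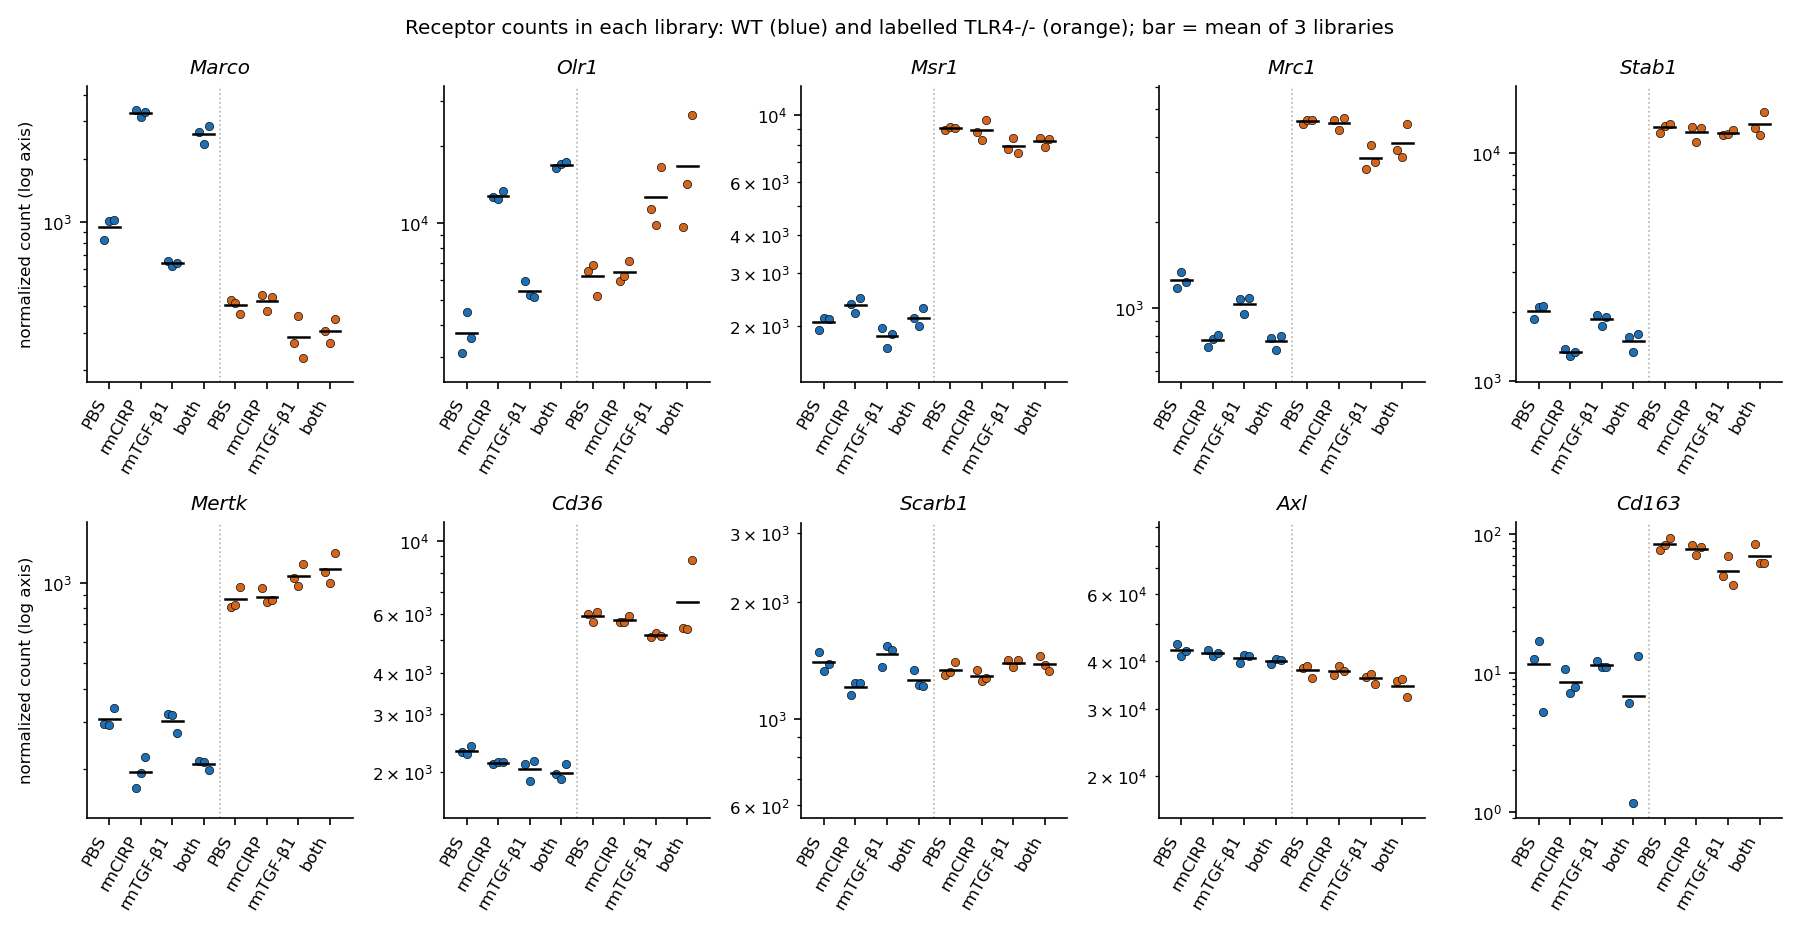
Normalized counts of the 10 receptor genes in each library (log axis), with 3 points per condition, WT in blue, libraries labelled TLR4-/- in orange and a bar at the condition mean. Marco and Olr1 are higher in both WT conditions that hold rmCIRP, Mrc1, Stab1 and Mertk are lower there, and 6 receptors lie higher in every library labelled TLR4-/- than in any WT library, as 9.89% of all genes tested did.

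In WT cells, rmCIRP raised 3 of the 10 receptors and lowered 4. The rises were in Marco, Olr1 and Msr1, and the falls in Mrc1, Stab1, Mertk and Scarb1, while Cd36, Cd163 and Axl did not pass the test. Calls rest on the quasi-likelihood test of edgeR at an adjusted p under 0.1, with p-values adjusted after Benjamini and Hochberg over every gene tested, and 43.9% of all genes tested passed it in this comparison (19.8% higher and 24.1% lower), so that 7 of 10 is to be read against that share. The median log2 fold change of the 10 receptors was -0.17, beside -0.022 over all genes tested.

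Marco, a class A scavenger receptor that binds bacteria and inhaled particles, had 824, 1015 and 1023 normalized counts in the WT libraries with PBS and 3387, 3152 and 3328 in those with rmCIRP. Every library with rmCIRP was more than 3 times the highest with PBS. The log2 fold change was 1.78 (adjusted p = 5.81e-12, SE 0.10), a fold of 3.44. Olr1, the lectin-like receptor for oxidised low-density lipoprotein, had 3101, 4482 and 3541 normalized counts with PBS and 12635, 12445 and 13377 with rmCIRP. Here too the groups were far apart, and the log2 fold change was 1.78 (adjusted p = 3.64e-06, SE 0.24). Msr1, the founding class A scavenger receptor of macrophages, rose far less, from 1938, 2132 and 2119 to 2376, 2205 and 2485 normalized counts, without overlap. Its log2 fold change was 0.19 (adjusted p = 0.0261, SE 0.064).

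Among the receptors that fell, Mrc1, the mannose receptor CD206, had 1179, 1344 and 1232 normalized counts with PBS and 727, 779.9 and 803 with rmCIRP. The groups did not overlap, and its log2 level fell by 0.71 (adjusted p = 1.90e-06, SE 0.09). Stab1, the endocytic receptor stabilin-1, went from 1869, 2106 and 2129.5 to 1383, 1287 and 1339.6, a fall by 0.61 on the log2 scale (adjusted p = 3.49e-06, SE 0.082). Stab1 shares 112 exon bases, 1.09% of its exon length, with Nt5dc2 on the opposite strand in GENCODE's GRCm38 annotation, the only such overlap among the 10 genes. Mertk, a receptor tyrosine kinase of efferocytosis, had 295, 293 and 340.4 normalized counts with PBS and 169.8, 193 and 222 with rmCIRP, again with no overlap, and fell by 0.66 on the log2 scale (adjusted p = 1.80e-04, SE 0.12). Scarb1, the high-density lipoprotein receptor SR-BI, fell by 0.21 (adjusted p = 0.00339, SE 0.054), from 1485, 1326 and 1381 to 1156, 1238 and 1239 normalized counts.

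Cd36, a class B receptor for oxidised lipids and fatty acids, had 2309, 2267 and 2406 normalized counts with PBS and 2116, 2152 and 2156 with rmCIRP. Although these values did not overlap, the log2 difference of -0.13 was not called (95% interval -0.35 to 0.10, adjusted p = 0.42), and it was called, at -0.11 with adjusted p = 0.0318, when only the 6 libraries compared entered the fit. In all, the libraries of 8 receptors did not overlap between rmCIRP and PBS, against 50.8% of all genes tested. Axl, the most abundant member, stayed within 44352, 41349.7 and 42433 with PBS and 42746, 41369 and 41967 with rmCIRP, and its log2 difference had a narrow interval of -0.11 to 0.052 (all intervals are 95% normal intervals from the SE, slightly narrower than the test itself allows). For Cd163, the haemoglobin-haptoglobin scavenger receptor, WT counts were too low to show a change of this size (log2 difference -0.45, interval -1.35 to 0.45). The 17 macrophage markers also moved with rmCIRP in WT cells, where 43.9% of all genes tested were called. Of these markers 5 were higher and 9 lower, with a median log2 fold change of -0.24. Their summed level was 88596 to 94597 normalized counts against 101918 to 110897 with PBS. The 10 fibroblast markers moved likewise, 2 higher and 6 lower, with a median of -0.25. Their sum was 681665 to 726165 against 807075 to 866295 with PBS. The part of either list in the receptors' changes was not tested. The macrophage marker sum includes neither Marco nor Mrc1. Marco counts equalled 0.883% of it with PBS and 3.58% with rmCIRP, and Mrc1 counts 1.16% and 0.838%. On this measure Olr1 (3.43% and 13.9%) and Msr1 (1.91% and 2.56%) also rose, and Stab1 (1.89% and 1.45%) and Mertk (0.287% and 0.212%) fell. Scarb1 did not fall, and its libraries overlapped, at 1.196 to 1.457% and 1.248 to 1.397%. Cd36 (2.16% and 2.33%) and Axl (39.7% and 45.7%) rose, and Cd163 overlapped. Lyz2 weighs most in the sum, with a mean of 176418 normalized counts over all libraries.

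The promoter sequences of 8 of the 10 receptors were matched in RefSeq (GRCm38.p6). The 250 bases before the start site are shown for the 2 receptors with the largest rises and for Mrc1, which fell most, and capitals mark the only matches, on either strand, to 4 motif patterns searched in them.
Marco, chr1:120505025-120505274, minus strand: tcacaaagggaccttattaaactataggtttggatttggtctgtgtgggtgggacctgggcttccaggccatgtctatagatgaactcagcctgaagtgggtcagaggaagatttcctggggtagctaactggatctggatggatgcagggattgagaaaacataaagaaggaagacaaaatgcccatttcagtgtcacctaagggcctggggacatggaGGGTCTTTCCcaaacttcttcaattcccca
Olr1, chr6:129507166-129507415, minus strand: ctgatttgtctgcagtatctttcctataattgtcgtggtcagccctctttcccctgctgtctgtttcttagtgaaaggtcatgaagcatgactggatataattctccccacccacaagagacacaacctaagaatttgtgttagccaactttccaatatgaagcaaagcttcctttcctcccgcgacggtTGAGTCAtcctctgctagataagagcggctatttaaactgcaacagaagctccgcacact
Mrc1, chr2:14229164-14229413, plus strand: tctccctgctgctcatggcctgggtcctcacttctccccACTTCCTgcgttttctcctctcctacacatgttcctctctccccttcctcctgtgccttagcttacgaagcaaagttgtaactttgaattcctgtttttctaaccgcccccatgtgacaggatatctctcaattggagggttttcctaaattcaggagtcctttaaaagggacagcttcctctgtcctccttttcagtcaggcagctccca
In the Marco promoter the capitals are a match to the kappaB-type pattern (GGG, any 2 bases, TTTCC), 30 bases before the start, which 1.41% of 32851 promoters of the same length hold. In Olr1 they are a match to the AP-1 pattern TGANTCA, 60 bases before the start, found in 6.75% of promoters. In Mrc1 they are the reverse complement of the ETS or PU.1 pattern AGGAAGT, 211 bases before the start, found in 7.69%. The CREB pattern TGACGTCA, held by 1.55% of promoters, had no match in any of the 8, and Cd36, Cd163, Stab1, Mertk and Axl matched none of the 4. These matches describe letters and are not evidence of binding.

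Adding rmCIRP on top of rmTGF-β1 in WT cells moved the same 7 receptors in the same directions, 3 higher and 4 lower, where 42.2% of all genes tested were called (20.5% higher and 21.7% lower). The same 7 were those whose libraries did not overlap, as did those of 50% of all genes tested. The 2 comparisons use different libraries. Marco had 658, 622 and 641 normalized counts with rmTGF-β1 and 2675, 2332 and 2836 with both agents. This log2 fold change of 2.03 (adjusted p = 1.26e-12, SE 0.11) was the largest rise of any receptor with a treatment. Olr1 reached its highest WT level with both agents, at 16435, 17079 and 17375 normalized counts against 5926, 5248 and 5136 with rmTGF-β1 (log2 fold change 1.64, adjusted p = 1.08e-05, SE 0.24). Msr1 rose by 0.20 on the log2 scale (adjusted p = 0.0175, SE 0.065), a call that was lost without replicate 3 with both agents or replicate 2 with rmTGF-β1. Mertk fell by 0.54 (adjusted p = 0.00143, SE 0.12), Mrc1 by 0.44 (adjusted p = 6.29e-04, SE 0.092), Stab1 by 0.32 (adjusted p = 0.00411, SE 0.082) and Scarb1 by 0.23 (adjusted p = 0.00197, SE 0.054), all on the log2 scale. Cd36 and Axl differed by -0.045 and -0.03 and were not called, nor was Cd163 at -0.71, although without replicate 3 with both agents its fall by 1.56 was called.

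Whether rmCIRP acted differently in the presence of rmTGF-β1 was tested as an interaction in WT cells. No receptor was called by edgeR or by DESeq2, 1 had an unadjusted p under 0.05, and 0.0492% of all genes tested were called (0.0369% higher and 0.0123% lower). The difference was 0.30 for Stab1 (interval 0.07 to 0.52), the receptor with that unadjusted p, and 0.26 for Mrc1 (interval 0.012 to 0.52), where the test gave an unadjusted p of 0.0524 by edgeR. For Marco the difference was 0.24 (interval -0.045 to 0.53).

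**Figure D2:**
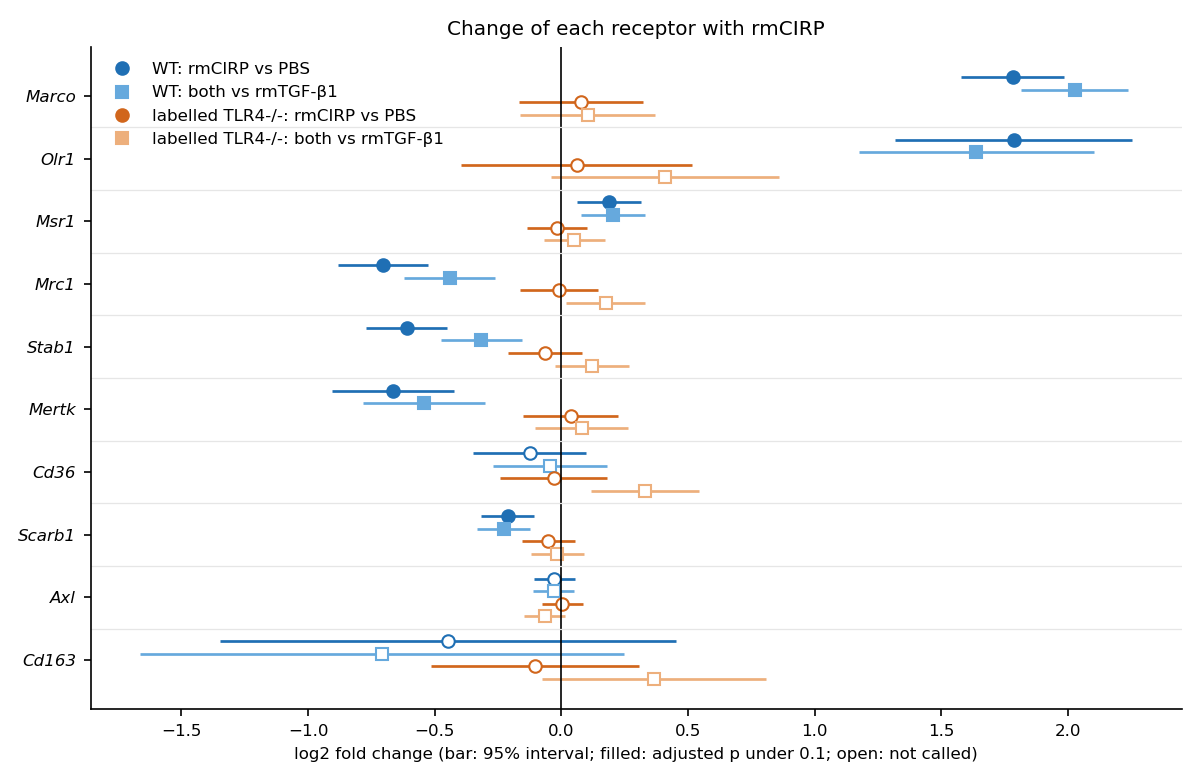
Log2 fold change of each receptor with rmCIRP, alone against PBS (circles) and added to rmTGF-β1 (squares), in WT (blue) and cells labelled TLR4-/- (orange), with bars for 95% intervals and filled symbols for an adjusted p under 0.1. The WT symbols of Marco and Olr1 lie beyond 1.6, those of Mrc1, Stab1 and Mertk lie below 0, and no symbol of the cells labelled TLR4-/- is filled.

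In cells labelled TLR4-/-, none of the 10 receptors passed the test with rmCIRP. No receptor was called by edgeR or DESeq2 and none had an unadjusted p under 0.05, and of all genes tested 0% were called by edgeR, with 1136 at an unadjusted p under 0.05 and 33 called by DESeq2. Marco had 429.7, 415 and 369 normalized counts with PBS and 452, 379.6 and 444 with rmCIRP. Olr1 had 6517, 6879.5 and 5196 with PBS and 5944, 6231 and 7128 with rmCIRP. All 10 receptors had overlapping libraries here, whereas 13.7% of all genes tested did not overlap. The log2 differences were 0.076 for Marco (interval -0.17 to 0.32), 0.06 for Olr1 (-0.40 to 0.52), -0.019 for Msr1 (-0.14 to 0.10), -0.011 for Mrc1 (-0.17 to 0.14), -0.066 for Stab1 (-0.21 to 0.081) and 0.036 for Mertk (-0.15 to 0.22). Of the 17 macrophage markers none was called either.

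The response to rmCIRP itself differed between the genotypes for 6 of the 10 receptors, 3 in each direction, against 31.4% of all genes tested (17.1% higher and 14.3% lower). The difference, as the response labelled TLR4-/- minus that of WT on the log2 scale, was -1.70 for Marco (adjusted p = 4.96e-08, SE 0.16) and -1.72 for Olr1 (adjusted p = 5.31e-04, SE 0.33). It was positive for the receptors that rmCIRP lowered in WT cells, 0.70 for Mertk (adjusted p = 0.00201, SE 0.16), 0.69 for Mrc1 (adjusted p = 1.71e-04, SE 0.12) and 0.55 for Stab1 (adjusted p = 9.01e-04, SE 0.11). For Msr1 it was -0.20 (adjusted p = 0.0969, SE 0.088), a call that was lost when any of 8 of the 12 libraries was left out, where the adjusted p reached 0.175. Scarb1 was not called (0.16, interval 0.012 to 0.31), nor was Cd36 (0.094, interval -0.21 to 0.40). Of the macrophage markers, 11 of 17 differed in response, 6 positive and 5 negative, and their part in the receptors' differences was not tested.

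rmTGF-β1 alone lowered Marco and Mrc1 in WT cells, 2 of the 10 receptors where 12.4% of all genes tested were called (5.77% higher and 6.65% lower). None of the 10 was called higher. The libraries of 4 receptors did not overlap with those given PBS, against 29.7% of all genes tested. Marco went from 824, 1015 and 1023 normalized counts with PBS to 658, 622 and 641 with rmTGF-β1, below every PBS library, a fall by 0.58 on the log2 scale (adjusted p = 0.00173, SE 0.11). Mrc1 had 1071, 953 and 1086 normalized counts with rmTGF-β1 and fell by 0.27 (adjusted p = 0.0543, SE 0.088), a call lost without replicate 2 or 3 with PBS or replicate 2 with rmTGF-β1, where the adjusted p reached 0.238. Olr1, with 5926, 5248 and 5136 normalized counts against 3101, 4482 and 3541 with PBS, lay higher in every library with rmTGF-β1. Its log2 difference of 0.55 (SE 0.24, adjusted p = 0.168) was not called in the fit over all 24 libraries and was called, at 0.56 with adjusted p = 0.00188, in a fit of the WT libraries compared alone. Differences for Msr1 (-0.16), Cd36 (-0.18) and Stab1 (-0.13) were below 0 and that for Scarb1 (0.066) above it, and none was called.

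In cells labelled TLR4-/-, rmTGF-β1 raised 2 receptors and lowered 4, where 23.9% of all genes tested were called (12.1% higher and 11.7% lower). The libraries of 7 receptors did not overlap with those given PBS, against 33.8% of all genes tested. Olr1 had 6517, 6879.5 and 5196 normalized counts with PBS and 11366, 9833 and 16636 with rmTGF-β1, all higher, a log2 fold change of 1.03 (adjusted p = 0.00343, SE 0.23). Marco fell from 429.7, 415 and 369 to 269, 360.3 and 229, by 0.51 (adjusted p = 0.00955, SE 0.13), and Mrc1 from 4457, 4583 and 4585 to 3092, 3759 and 3258, by 0.43 (adjusted p = 6.27e-04, SE 0.079), both on the log2 scale. These 3 calls held without any one library. The other 3 did not. Mertk had 809, 824 and 967 normalized counts with PBS and 1039, 970.3 and 1172 with rmTGF-β1 (log2 fold change 0.30, adjusted p = 0.0321, SE 0.094), and its call was lost without replicate 1 or 2 with PBS or replicate 3 with rmTGF-β1. Cd163, at 77.1, 83.7 and 93.6 and 50.2, 70.1 and 43.4, fell by 0.64 (adjusted p = 0.0475, SE 0.22), and its call was lost without replicate 3 with PBS or replicate 1 or 3 with rmTGF-β1. Msr1 fell by 0.20 (adjusted p = 0.0292, SE 0.061), lost without replicate 3 with rmTGF-β1, and without that library 3 receptors in place of 6 were called. Stab1 (-0.075), Cd36 (-0.19) and Scarb1 (0.066) were not called, although Cd36 was, at -0.19 with adjusted p = 0.0181, when only the libraries compared entered the fit. Of the 17 macrophage markers 1 was higher and 1 lower, with a median of 0.032.

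**Figure D3:**
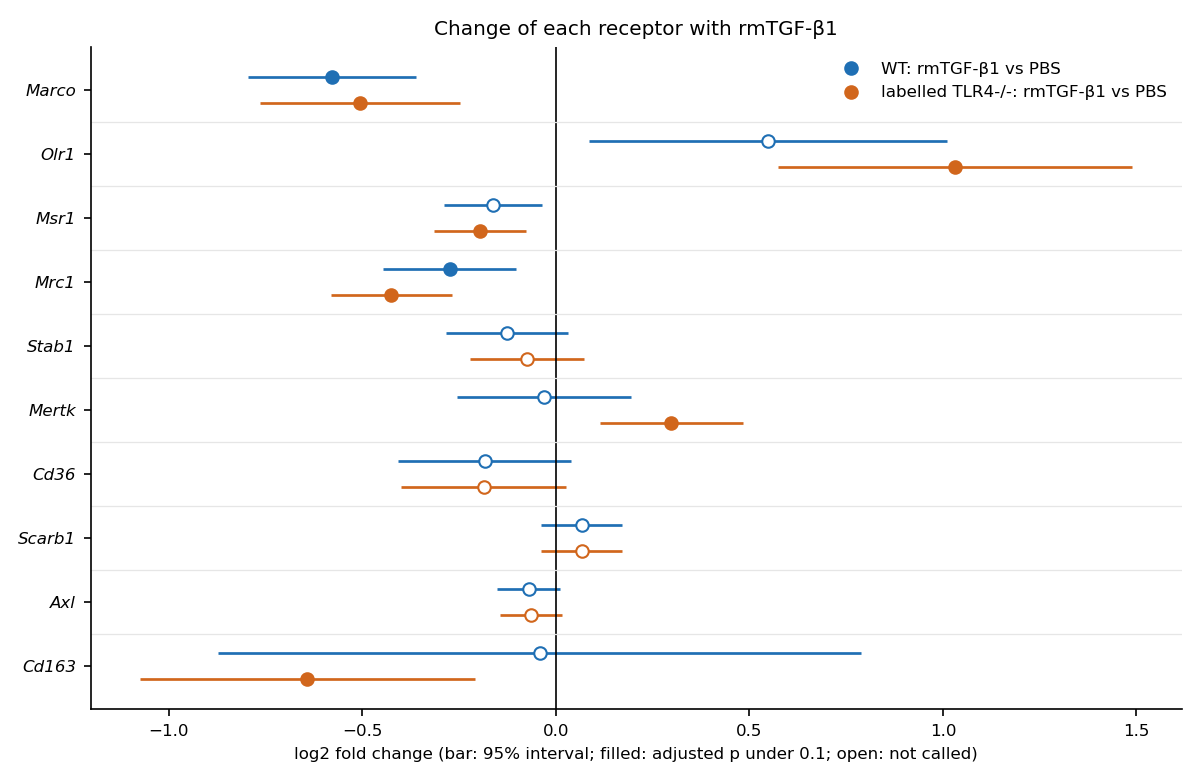
Log2 fold change of each receptor with rmTGF-β1 against PBS in WT (blue) and cells labelled TLR4-/- (orange), with bars for 95% intervals, filled where the adjusted p was under 0.1. Marco and Mrc1 lie below 0 and Olr1 above it in both genotypes, and the bars of the 2 genotypes overlap for every receptor.

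The response to rmTGF-β1 was not shown to differ between the genotypes for any receptor. None was called by edgeR or DESeq2, 1 had an unadjusted p under 0.05, and 0.0861% of all genes tested were called (0.0369% higher and 0.0492% lower). The widest differences, labelled TLR4-/- minus WT, were -0.60 for Cd163 (interval -1.54 to 0.35), 0.48 for Olr1 (interval -0.16 to 1.13) and 0.33 for Mertk (interval 0.037 to 0.62).

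When rmCIRP was added to rmTGF-β1 in cells labelled TLR4-/-, edgeR called no receptor, 2 had an unadjusted p under 0.05, DESeq2 called 1, and 2.69% of all genes tested were called (1.56% higher and 1.13% lower). Cd36 had 5105, 5279.6 and 5159 normalized counts with rmTGF-β1 and 5459, 5429 and 8725 with both, so that the libraries did not overlap, as for 13% of all genes tested, and only replicate 3 was far above the rest. Its log2 difference was 0.33 (adjusted p = 0.129) and fell to 0.068 without that library. Cd36 was the receptor that DESeq2 called, at 0.34 with adjusted p = 0.0563. Olr1 had 11366, 9833 and 16636 and 9674, 14263 and 26516 normalized counts, with both agents the widest spread, relative to the mean, of any receptor in a condition labelled TLR4-/-. Its difference of 0.41 (adjusted p = 0.362) was -0.079 without replicate 3 with both, and it was called at 0.69 (adjusted p = 0.0294) without replicate 1 with both and at 0.66 (adjusted p = 0.0967) without replicate 3 with rmTGF-β1. Of all libraries, 1 labelled TLR4-/- with both agents had the highest summed endothelial markers, at 1447 normalized counts. The highest sum in any other condition was 965. The part of these markers in the result was not tested.

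Between the genotypes with PBS, 7 of the 10 receptors were higher in cells labelled TLR4-/- and 2 were lower, where 47.1% of all genes tested were called (23.2% higher and 24% lower). These 9 were also the receptors whose libraries did not overlap between genotypes, against 51.7% of all genes tested. Cd163 went from 12.5, 16.97 and 5.2 normalized counts in WT to 77.1, 83.7 and 93.6, a log2 difference of 2.85 (adjusted p = 4.41e-08, SE 0.29). Stab1 had 1869, 2106 and 2129.5 in WT and 12341, 13245 and 13466 in libraries labelled TLR4-/-, a log2 difference of 2.67 (adjusted p = 1.04e-16, SE 0.081). Msr1 followed, with 1938, 2132 and 2119 and 8976, 9148 and 9083 and a log2 difference of 2.13 (adjusted p = 1.04e-16, SE 0.065). In none of these did the genotypes come near each other. The log2 difference was 1.86 for Mrc1 (adjusted p = 2.51e-14, SE 0.084), 1.49 for Mertk (adjusted p = 7.37e-11, SE 0.11), 1.34 for Cd36 (adjusted p = 1.30e-09, SE 0.11) and 0.74 for Olr1 (adjusted p = 0.0156, SE 0.24).

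Marco ran the other way, with 824, 1015 and 1023 normalized counts in WT and 429.7, 415 and 369 in libraries labelled TLR4-/-, lower by 1.24 on the log2 scale (adjusted p = 1.01e-08, SE 0.12). Axl was slightly lower, at 44352, 41349.7 and 42433 and 38399, 38887 and 36208, a log2 difference of -0.18 (adjusted p = 0.00137, SE 0.041), and Scarb1 was not called (-0.064, interval -0.17 to 0.04). All 17 macrophage markers were higher in cells labelled TLR4-/-, with a median log2 difference of 2.20, beside 0.001 over 10 fibroblast markers, of which 1 was higher and 3 lower. Of 6 alveolar macrophage markers tested 5 were higher, and of 6 endothelial markers 1 was higher and 4 lower. The part of these cells, of sex and of the lung pool behind each genotype in the receptors' differences was not tested, and genotype and pool cannot be told apart.

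**Figure D4:**
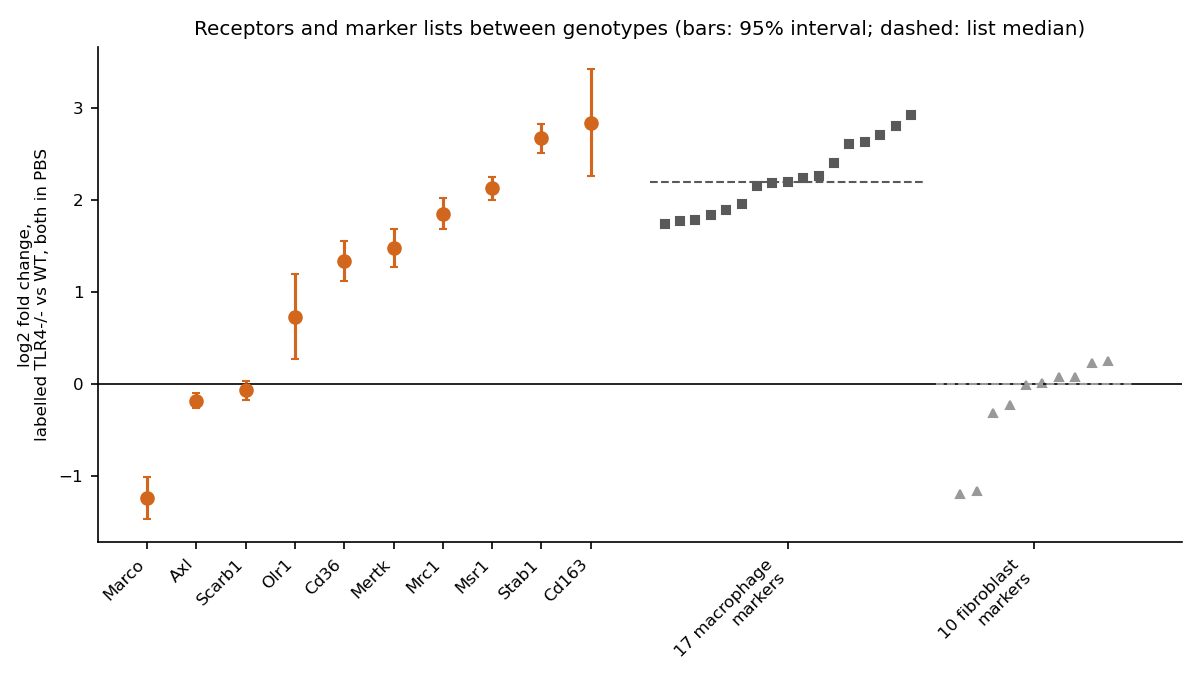
Log2 difference between cells labelled TLR4-/- and WT cells, both with PBS, for the 10 receptors (orange, bars 95% intervals) beside the single values of 17 macrophage markers (squares) and 10 fibroblast markers (triangles), with dashed lines at the list medians. Cd163, Stab1, Msr1 and Mrc1 lie within the range of the macrophage markers, while Marco, Axl and Scarb1 lie below 0.

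Other genes of uptake were counted in 4 lists. They were other scavenger receptors, other apoptotic-cell receptors with their bridging ligands, and the engulfment machinery together with the phospholipid scramblase Xkr8. The last list held nuclear receptors with lipid transporters and receptor-shedding proteases. In WT cells with rmCIRP, 2 of 13 other scavenger receptors tested were higher and 7 lower (median -0.20), beside the 19.8% higher and 24.1% lower of all genes tested (43.9% in all), which is also the background for the 3 lists that follow. Cxcl16, a membrane chemokine that also binds oxidised lipoprotein, rose by 1.90 on the log2 scale (adjusted p = 2.25e-13, SE 0.092) and Scarf1 by 1.01 (adjusted p = 8.10e-05, SE 0.17). Scara3 fell by 0.63 (adjusted p = 1.25e-06, SE 0.078). Of 14 further apoptotic-cell receptors and ligands 4 were higher and 5 lower (median -0.11). Havcr1, the phosphatidylserine receptor TIM-1, rose by 1.47 from a low level (adjusted p = 0.00271, SE 0.36) and integrin Itgb3 by 1.13 (adjusted p = 3.89e-04, SE 0.23). Gas6, the ligand that bridges apoptotic cells to Mertk and Axl, fell by 0.51 (adjusted p = 8.77e-06, SE 0.073), and Cd300lf by 0.53 (adjusted p = 0.0951, SE 0.24).

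Of 12 genes in the engulfment list 4 were higher and 5 lower in the same comparison (median -0.12), where 43.9% of all genes tested were called. The GTPase Rac2 rose by 0.75 (adjusted p = 7.41e-08, SE 0.077) and the phospholipid scramblase Xkr8 by 0.50 (adjusted p = 1.98e-06, SE 0.064), while the Rac activator Dock2 fell by 1.11 (adjusted p = 1.02e-08, SE 0.10) and its partner Elmo1 by 0.79 (adjusted p = 1.19e-07, SE 0.084), on the log2 scale. Among 9 nuclear receptors, transporters and sheddases 1 was higher and 3 lower, a share near that of all genes. Adam17, a protease that sheds Mertk, rose by 0.20 (adjusted p = 3.97e-05, SE 0.032), Adam10 fell by 0.30 (adjusted p = 5.53e-07, SE 0.035) and the oxysterol receptor Nr1h3 by 0.25 (adjusted p = 0.0313, SE 0.081). In cells labelled TLR4-/-, rmCIRP changed no gene of the 4 lists by edgeR's test. The response differed between genotypes for 9 of 13 other scavenger receptors, 7 of 14 apoptotic-cell receptors and ligands, 8 of 12 in the engulfment list and 3 of 9 in the last list, where 31.4% of all genes tested differed. The difference, labelled TLR4-/- minus WT, was -1.92 for Cxcl16 (adjusted p = 2.04e-10, SE 0.13), 0.45 for Gas6 (adjusted p = 0.00239, SE 0.10) and 1.06 for Dock2 (adjusted p = 1.07e-06, SE 0.12).

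**Figure D5:**
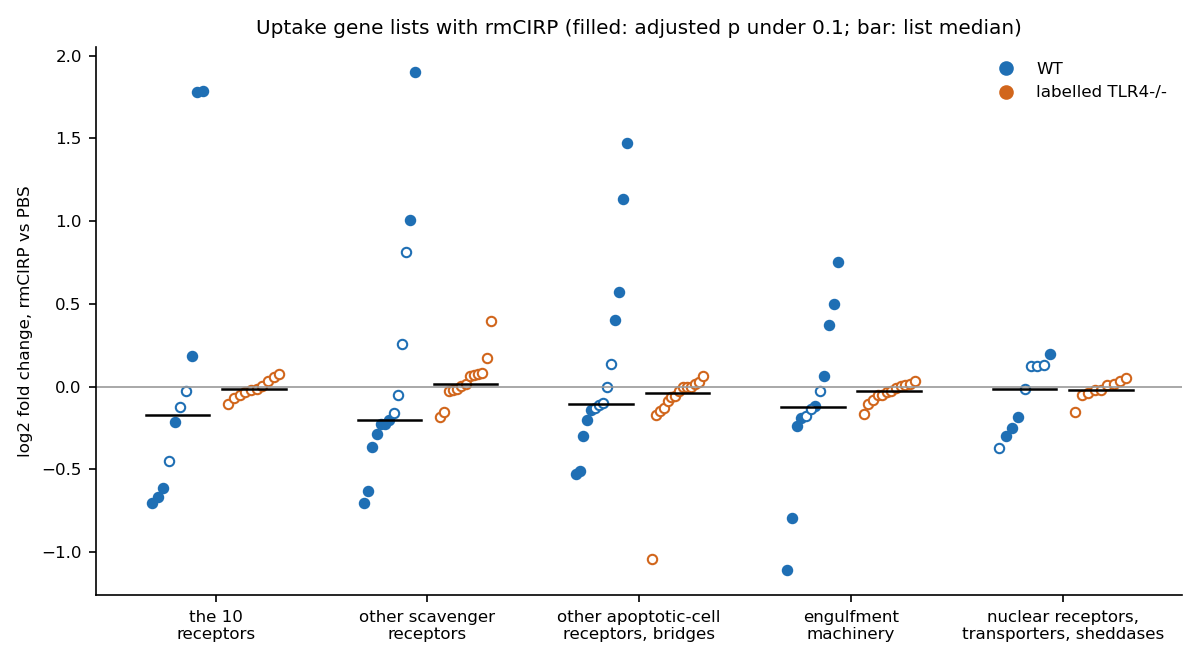
Log2 fold change with rmCIRP against PBS for the 10 receptors and 4 lists of uptake genes, 1 point per gene tested, in WT (blue) and cells labelled TLR4-/- (orange), filled where the adjusted p was under 0.1, with a bar at each list's median. In WT cells every list holds genes called in both directions, and no point of the cells labelled TLR4-/- is filled.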

How the data were processed

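The 24 libraries were made with a stranded total RNA kit, and the authors deposited raw read counts per gene, 1 table per library. Per the labels' processing notes, the tools named were FastQC and HTSeq with the build NCBIM37; the annotation release and strand setting are not given in the sources used here, and without strand, reads of Stab1 and Nt5dc2 in their shared bases cannot be told apart. The 5 tally lines at the end of each table, 14.5 to 16.1% of reads, were left out. The spread between replicates was wider than counting alone gives, at a median of 4.71 chi-square units per degree of freedom, and each p-value measures only the spread between libraries, since nothing in the labels says that they came from separate cultures.

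Counts were divided by DESeq2 size factors for the levels shown (normalized counts) and by GENCODE exon length (GRCm38) where genes are compared. Tests used edgeR 4.0.16 in R 4.3.3 (glmQLFit and glmQLFTest, TMM scaling, filterByExpr) with 1 mean per condition over all 24 libraries, Benjamini-Hochberg adjustment over 16258 genes and a threshold of 0.1. DESeq2 1.42.0, other scaling, filters and sample choices, a replicate term and leaving out each library were tried as alternatives. On counts simulated for WT rmCIRP against PBS, with 15937 genes tested, 84% of 1.5-fold and 96% of 2-fold changes were recovered. There, 100 genes were changed by each fold, and 18 unchanged genes were called. Every simulated gene had the same spread, and only genes above a set mean count were changed. The rates therefore do not carry over to genes with a wide spread or low counts, such as Olr1 or Cd163. All 10 receptors are named; from other lists, at most the 2 largest rises and falls among called genes whose mean reached 50 normalized counts, and from marker lists counts, medians, sums and genes at 0. One gene that this rule names is not reported here. The receptors, gene lists and motif patterns were chosen with earlier results of these data known, and Xist and the Y-linked genes were added after them.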

Additional observations from a re-analysis of the deposited data

Results flagged for a closer look

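The response to rmCIRP differed between WT cells and cells labelled TLR4-/- for 6 receptors, by a test of the difference itself that called 31.4% of all genes tested (response labelled TLR4-/- minus response in WT, log2, edgeR's quasi-likelihood test). The values were -1.70 for Marco, -1.72 for Olr1, 0.70 for Mertk, 0.69 for Mrc1, 0.55 for Stab1 and -0.20 for Msr1. For Msr1 the call did not hold without 8 of the 12 libraries, each left out in turn, and for the other 5 it held without any one of them. With 3 libraries a condition, single libraries were not screened as outliers.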

How the results depend on the processing

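All 37 receptor differences called kept direction and call under the 6 settings that keep every library (DESeq2, its size factors in edgeR, no filter, a mean count of at least 10, only the libraries compared, replicate block). The no-filter fit could give far smaller SEs, as for Olr1 with rmTGF-β1 in WT (0.047, far below that of the main fit). A call kept under that setting therefore adds little. Leaving out 1 library kept 238 of 258 called values and ended the call in 20, over 6 differences named in the report, with no change of sign. With rmTGF-β1 in WT, 2 receptors became 5 with no filter, 5 with only the libraries compared and 1 to 3 without 1 library; labelled TLR4-/- the 6 became 7 with no filter and with only the libraries compared, and 3 to 6 without 1 library. With both agents against rmTGF-β1 in cells labelled TLR4-/-, 0 receptors became 1 with DESeq2, 3 with no filter and 0 to 2 without 1 library. With no filter, 1 receptor was called for the genotype difference in rmTGF-β1 response and 1 for the interaction. That fit held 34285 genes, against 16258 in the main fit. Shares of all genes are not given for these settings, so these receptor counts are not to be read as a result about the receptors.

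Over all genes, counts that were small moved most. The 0 called with rmCIRP labelled TLR4-/- became 33 with DESeq2, 149 with no filter, 29 with only the libraries compared and 0 to 9 without 1 library. The 437 with both agents labelled TLR4-/- became 902, 1580, 0 and 0 to 2674, the 8 of the interaction 37, 198, 125 and 2 to 7. The 14 of the genotype difference in rmTGF-β1 response became 163 with DESeq2, 563 with no filter, 23 with a mean count of at least 10 and 0 to 119 without 1 library. Without 1 library the counts with rmTGF-β1 were 1029 to 1690 in WT (main 2019) and 2517 to 3783 labelled TLR4-/- (main 3884). The causes were not tested.

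Differences that were not called changed sign without some library: Axl with rmCIRP in WT (-0.045 to 0.014), Scarb1 between genotypes (-0.087 to 0.0014), Mertk (-0.025 to 0.12), Mrc1 (-0.032 to 0.019), Msr1 (-0.073 to 0.022) and Olr1 (-0.059 to 0.14) with rmCIRP labelled TLR4-/-, and Olr1 with both agents labelled TLR4-/- (-0.079 to 0.69, called without either of 2 libraries).

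The replicate number was not treated as pairing, since neither labels nor methods say that it pairs libraries. Same-numbered libraries had a mean correlation of 0.012 in their deviations from condition means (lowest -0.117, highest 0.369, 84 pairs). For libraries of different number the mean was -0.006. Among the 3 numbers, 12 of 24 libraries correlated best with their own. Used as a replicate block, the replicate number called 1 receptor with both agents labelled TLR4-/- (Cd36, 0.31, adjusted p = 0.0848). Over all genes it called 810 there, 1 with rmCIRP labelled TLR4-/- and 22 for the genotype difference in rmTGF-β1 response. It changed no other receptor's call. Depth limits Cd163 in WT, where counts of 17 or fewer leave wide intervals.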
